A study of Homo sapiens with 8 samples.

Results

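The Polycomb and Trithorax genes described here are 41 genes that encode subunits of the main chromatin-modifying complexes of both groups, chosen by name from the 18928 features of a gene expression table. All 41 were found by their symbol and all passed the filter on low values. They were followed across 8 RNA sequencing libraries of 2 human liver cancer cell lines, MHCC-97H and MHCC-97L, named for their high and low metastatic potential. The groups were MHCC-97H with stable Flag-OGT, MHCC-97H without it, MHCC-97L with stable Flag-OGT and MHCC-97L without it, with 2 libraries each. Flag-OGT is a Flag-tagged copy of the full-length human O-GlcNAc transferase, which modifies nuclear and cytosolic proteins with single N-acetylglucosamine sugars. It was delivered by a lentiviral vector and the cells were selected with G418; whether a pool of cells or 1 clone was used is not stated. The libraries without Flag-OGT carry no genotype label and are called controls, and the sources used here do not say whether they held an empty vector. The study is about OGT on chromatin in liver cancer and its link to ZNF263, a zinc-finger transcription factor.

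Polycomb proteins keep developmental genes silent. Polycomb repressive complex 2 (PRC2) methylates lysine 27 of histone H3, and Polycomb repressive complex 1 (PRC1) attaches ubiquitin to histone H2A and compacts chromatin, with different paralogs giving rise to different versions of each complex. Trithorax proteins work against them: the SETD1 and KMT2 enzymes methylate lysine 4 of histone H3 in complexes that share WDR5, ASH2L and DPY30, and the KDM6 enzymes remove methyl groups from lysine 27. In Drosophila OGT is itself a Polycomb group gene, super sex combs, and in liver cancer EZH2, the PRC2 enzyme, is one of the most studied chromatin regulators.

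Values are deposited FPKM, a fragment count scaled by transcript length and library size so that levels of different genes can be set side by side. Differences are given as log2(FPKM + 1) of Flag-OGT minus control ± the standard error, which understates the change of low genes, and a gene was called at a Benjamini-Hochberg adjusted p under 0.05 from limma over 13553 tested genes. Nothing in the sources says that the 2 libraries of a group came from separate cultures, so the tests weigh differences against a spread that may be technical only. The read depth is unknown. OGT itself had 59.0 and 58.4 FPKM in MHCC-97H with Flag-OGT, against 32.5 and 34.2 FPKM without it. In MHCC-97L it had 51.0 and 54.5 FPKM with Flag-OGT, against 45.7 and 43.9 FPKM in the controls. The differences were 0.80 ± 0.06 (adjusted p = 3.0e-07) and 0.23 ± 0.06 (adjusted p = 0.00338). Rescaling the libraries ended the MHCC-97L call, which left 0.11 with a common sum (adjusted p = 0.0986) and 0.02 with median-of-ratios factors (adjusted p = 0.685).

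All 4 Flag-OGT libraries stood apart from the controls. Over the tested genes, a library correlated at 0.725 to 0.753 with libraries of its own line in the other state, but at 0.957 to 0.963 with the other line in the same state. Over the 41 Polycomb and Trithorax genes these ranges were 0.794 to 0.814 and 0.902 to 0.947, and libraries of 1 group correlated at 0.994 to 0.998. The summed FPKM of 14 hepatocyte marker genes was 27.9 to 28.5 in MHCC-97H with Flag-OGT, against 5478 to 5729 in its controls, and 20.8 to 33.4 in MHCC-97L with Flag-OGT, against 6436 to 6484 in its controls. Most of the control sums came from KRT8 and KRT18, keratins of simple epithelia in general: KRT8 had 11.1 and 10.9 FPKM in MHCC-97H with Flag-OGT, against 3957 and 3735 FPKM in the controls. Of the 12 markers tested, 11 were lower in MHCC-97H and 12 in MHCC-97L; the exception in MHCC-97H was APOA1, with 0.54 and 0.71 FPKM with Flag-OGT, against 0.39 and 0.33 FPKM in the controls. HNF4A, a defining liver transcription factor, had 0.03 and 0.04 FPKM in MHCC-97H with Flag-OGT, against 14.6 and 14.6 FPKM in the controls, while MHCC-97L had 0.02 and 0.01 FPKM with Flag-OGT, against 13.9 and 13.4 FPKM in the controls. Of these 14 markers, 2 reached 1 FPKM in a library of MHCC-97H with Flag-OGT and 10 in its controls, and 3 did in MHCC-97L with Flag-OGT and 13 in its controls; TTR was listed at 0 in every Flag-OGT library. Markers of other cell types were low or moved too: 5 neural markers summed to 10.0 to 11.7 FPKM in MHCC-97H with Flag-OGT, against 194 to 224 in its controls, and to 16.3 to 18.7 FPKM in MHCC-97L with Flag-OGT, against 100 to 104 in its controls. The 8 fibroblast markers summed to 20.7 to 21.0 FPKM in MHCC-97H with Flag-OGT, against 9.09 to 12.2 in its controls, and to 14.7 to 15.5 FPKM in MHCC-97L with Flag-OGT, against 4.54 to 5.33 in its controls, with COL1A2 at 0 in every Flag-OGT library. These sums hide opposite moves: in MHCC-97H, ACTA2 had 15.2 and 16.0 FPKM with Flag-OGT and was listed at 0 in both controls, whereas LUM had 0.02 and 0.05 FPKM with Flag-OGT, against 8.48 and 11.5 FPKM in the controls. The sum of 6 leukocyte markers did not exceed 7.26 FPKM in any library. The sum of 5 endothelial markers was 0.16 to 0.22 FPKM in MHCC-97H with Flag-OGT, against 6.97 to 7.18 in its controls, and 0.42 to 0.51 FPKM in MHCC-97L with Flag-OGT, against 8.36 to 9.23 in its controls. What follows therefore compares libraries by their labels: the introduced OGT and whatever else separates these libraries cannot be told apart, and no result can be given without them. These values do not settle whether the cells behind the Flag-OGT libraries were those of the line each label names, so rose and fell say only how libraries labelled Flag-OGT compare with the controls labelled as the same line. Summed FPKM of 18 proliferation genes was 1544 to 1561 in MHCC-97H with Flag-OGT, against 1043 to 1073 in its controls, and 1391 to 1409 in MHCC-97L with Flag-OGT, against 963.5 to 989.4 in its controls. The part of these shifts in the results was not tested. In such bulk samples, fewer cells of a type and less RNA per cell cannot be told apart.

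Most of the 41 genes differed between Flag-OGT and control libraries, and more of them were higher than lower. In MHCC-97H 36 were called, 27 higher and 9 lower, where 84.6% of all tested genes were called, 48.2% higher and 36.3% lower. In MHCC-97L 34 were called, 27 higher and 7 lower, where 84.8% of all tested genes were called, 50.1% higher and 34.7% lower. The members' shares were 65.9% higher in both lines, with 22% lower in MHCC-97H and 17.1% in MHCC-97L. Their median difference was 0.55 in MHCC-97H, beside 0.15 over all tested genes, and 0.34 in MHCC-97L, beside 0.19. The median size of the difference regardless of sign was 0.73 for the members and 0.73 for all genes in MHCC-97H, and 0.60 beside 0.70 in MHCC-97L. Median-of-ratios scaling brought the median of all genes to 0.00 and 0.02 and the members' to 0.36 and 0.17. It gave 24 members higher and 11 lower in MHCC-97H, beside 42% and 42.5% of all genes, and 20 higher and 10 lower in MHCC-97L, beside 42.7% and 41.5%. Without the second MHCC-97H Flag-OGT library, 5 members instead of 9 were called lower in MHCC-97H.

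The same direction held in both lines for 28 members. Higher in both were 23 members (56.1%), beside 40% of all tested genes, and lower in both were 5 members (12.2%), beside 27.4%: AEBP2, PHF1, PHF19, CBX8 and SETD1B. At least 2-fold higher in both were 8 members (19.5%), RBBP4, RBBP7, JARID2, MTF2, CBX6, PHC1, PCGF2 and SETD1A, beside 14.2% of all genes. Here 2-fold means a called difference of at least 1 in log2(FPKM + 1), not a ratio of FPKM. On that scale EZH1 in MHCC-97H fell just short, at 1.997-fold. PHF19 alone was at least 2-fold lower in both (2.44%), beside 12%. Within 1 line, 12 members were at least 2-fold higher and 1 lower in MHCC-97H, where 22.3% and 16% of all genes were. In MHCC-97L 10 were at least 2-fold higher and 3 lower, where 18.6% and 16.1% were. The lines had opposite calls for 3 members (7.32%), SUZ12, PCGF5 and KDM6B, beside 6.6%, and PHC3 and DPY30 were called in neither, beside 4.62%. CBX2, called higher in MHCC-97H, was not called in MHCC-97L. It was called lower there under common-sum and median-of-ratios scaling. The same held without either MHCC-97H control (-0.14) or without the first MHCC-97L Flag-OGT library (-0.2).

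**Figure D1:**
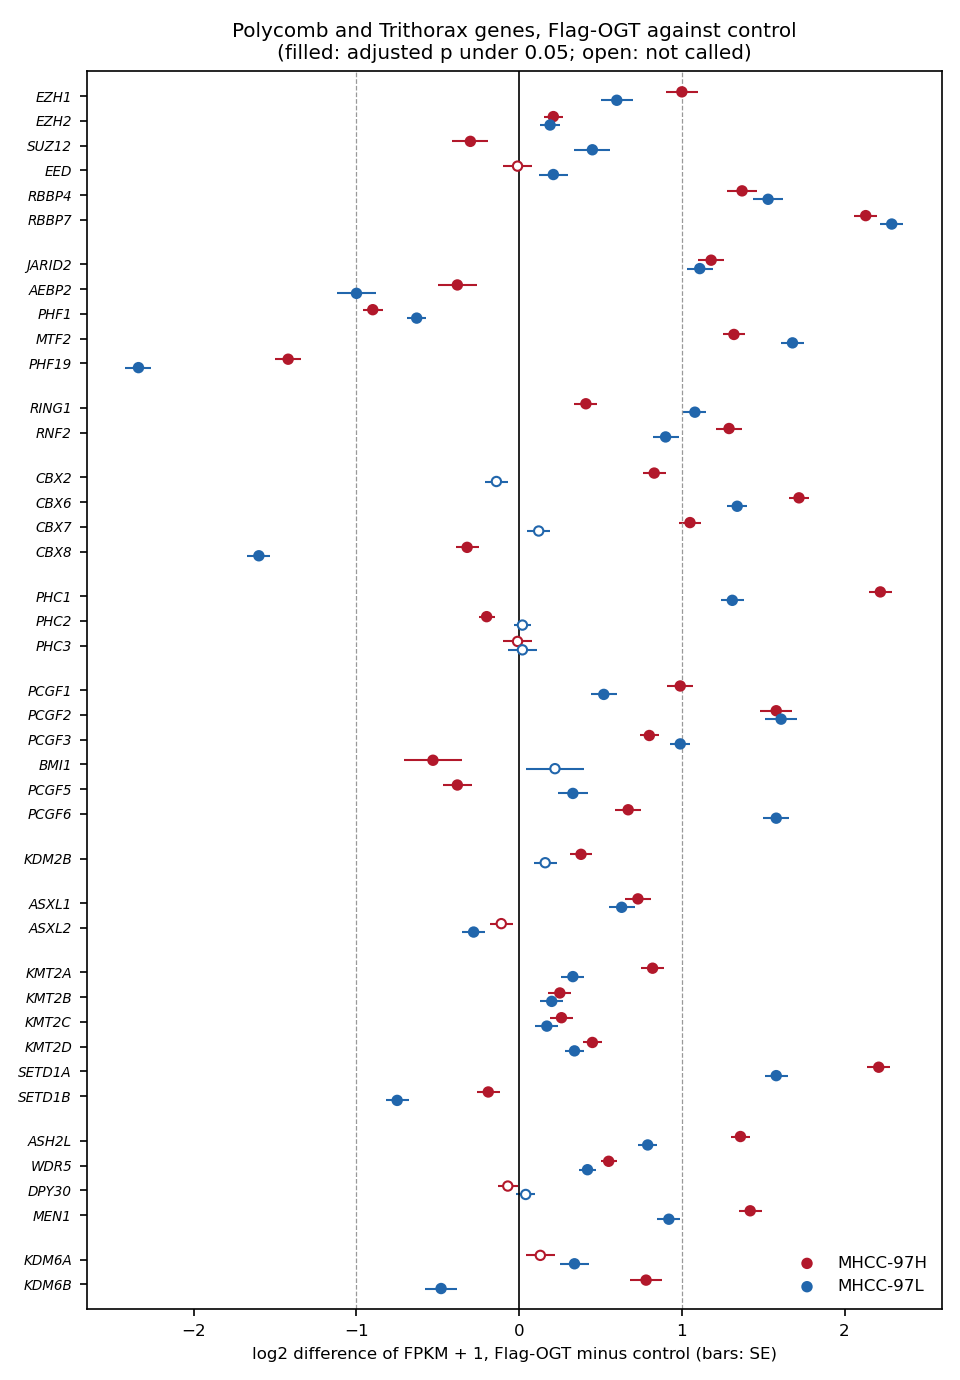
Log2 difference of FPKM + 1, Flag-OGT minus control, for each of the 41 genes in MHCC-97H (red) and MHCC-97L (blue), with bars for the standard error; filled points had an adjusted p under 0.05 and gaps part the subunit groups. RBBP7 in both lines and PHC1 and SETD1A in MHCC-97H lie farthest to the right. PHF19 in both lines and CBX8 in MHCC-97L lie farthest to the left, and paralogs of 1 family often lie on opposite sides of 0. Under median-of-ratios scaling EZH2, PHC2, KMT2B and DPY30 change sides in MHCC-97L, at -0.01, -0.18, -0.01 and -0.17. Genes that change sides but are called neither before nor after that scaling are not listed.

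Promoters are shown for the 4 genes with 1 listed start among those at least 2-fold higher in both lines, and for PHF19, the gene at least 2-fold lower in both, because these members moved in both lines. RefSeq promoter windows on GRCh38.p14 were listed for 36 of the 41 genes, and the 250 bases before the annotated start are printed 5′ to 3′ on the gene's strand. SETD1A lies on the forward strand at chr16:30957504-30957753 and MTF2 at chr1:93079033-93079282. CBX6 lies on the reverse strand at chr22:38872217-38872466, PCGF2 at chr17:38746629-38746878, and the upstream of 2 listed PHF19 starts at chr9:120877189-120877438. Capitals mark GGAGGA on either strand, the repeat unit of the known ZNF263 motif, which reads TCCTCC where it lies on the opposite strand.
SETD1A: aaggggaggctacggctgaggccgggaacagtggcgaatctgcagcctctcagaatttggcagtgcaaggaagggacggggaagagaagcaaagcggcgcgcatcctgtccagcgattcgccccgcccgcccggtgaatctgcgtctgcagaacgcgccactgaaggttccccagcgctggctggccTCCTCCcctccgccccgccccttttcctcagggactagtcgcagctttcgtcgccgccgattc
MTF2: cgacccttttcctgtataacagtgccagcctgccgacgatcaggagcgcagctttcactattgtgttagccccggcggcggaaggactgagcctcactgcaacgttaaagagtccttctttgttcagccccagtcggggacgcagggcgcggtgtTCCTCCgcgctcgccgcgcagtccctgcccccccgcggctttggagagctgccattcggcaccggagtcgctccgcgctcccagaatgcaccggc
CBX6: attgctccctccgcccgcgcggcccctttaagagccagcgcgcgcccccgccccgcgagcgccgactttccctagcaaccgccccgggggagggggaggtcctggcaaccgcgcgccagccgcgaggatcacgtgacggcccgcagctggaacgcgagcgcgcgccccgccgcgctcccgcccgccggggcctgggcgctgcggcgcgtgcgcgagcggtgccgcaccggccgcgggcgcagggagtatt
PCGF2: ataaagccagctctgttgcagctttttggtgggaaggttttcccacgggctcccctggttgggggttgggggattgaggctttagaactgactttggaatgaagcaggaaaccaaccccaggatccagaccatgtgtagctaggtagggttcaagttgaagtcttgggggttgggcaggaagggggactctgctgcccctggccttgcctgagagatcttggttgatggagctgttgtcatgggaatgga
PHF19: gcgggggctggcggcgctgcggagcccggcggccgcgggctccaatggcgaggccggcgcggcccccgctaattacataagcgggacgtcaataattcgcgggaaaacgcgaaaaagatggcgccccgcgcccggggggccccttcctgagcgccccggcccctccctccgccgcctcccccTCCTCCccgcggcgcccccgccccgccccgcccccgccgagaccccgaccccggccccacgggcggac
In the SETD1A, MTF2 and PHF19 windows the match starts at -63, -95 and -68 relative to the gene start, and the CBX6 and PCGF2 windows hold none. The other listed PHF19 window, at chr9:120868912-120869161, holds no match either. Among the higher genes with 2 listed starts, not shown, JARID2 and PHC1 have matches in 1 window each, and RBBP4 and RBBP7 in none. Over the member genes 19 of 58 windows (32.8%) held the motif, beside 31.8% of all 35116 windows. A match is a run of letters and not a measured binding site, and overlaps with motifs of other factors were not searched.

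Among the PRC2 core genes, the histone-binding subunits RBBP4 and RBBP7 were much higher in Flag-OGT libraries. Of the catalytic subunits EZH2 differed little and EZH1 was higher in both lines, and the scaffold SUZ12 was called in opposite directions. RBBP7, a histone-binding WD40 protein that also serves other chromatin complexes, had 192 and 189 FPKM in MHCC-97H with Flag-OGT, against 41.5 and 43.9 FPKM in the controls. In MHCC-97L it had 146 and 167 FPKM with Flag-OGT, against 31.8 and 30.7 FPKM in the controls. All Flag-OGT libraries lay above all controls, with differences of 2.13 ± 0.07 (adjusted p = 6.2e-10) and 2.29 ± 0.07 (adjusted p = 4.4e-10). Its close paralog RBBP4 had 45.6 and 44.8 FPKM in MHCC-97H with Flag-OGT, against 16.0 and 17.9 FPKM in the controls, while MHCC-97L had 35.5 and 41.4 FPKM with Flag-OGT, against 13.3 and 12.0 FPKM in the controls. These are differences of 1.37 ± 0.09 (adjusted p = 1.1e-07) and 1.53 ± 0.09 (adjusted p = 5.1e-08). Of the summed FPKM of the pair, RBBP7 made up 80.8% ± 0.058 in MHCC-97H with Flag-OGT and 71.6% ± 0.76 in its controls, and 80.3% ± 0.20 in MHCC-97L with Flag-OGT and 71.2% ± 0.90 in its controls (SD, n = 2 each).

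EZH2, the main H3K27 methyltransferase of dividing cells, was among the members that moved least. It averaged 23.3 ± 0.32 FPKM in MHCC-97H with Flag-OGT and 19.9 ± 0.0071 FPKM in the controls, and 22.2 ± 1.2 FPKM in MHCC-97L with Flag-OGT and 19.4 ± 0.78 FPKM in the controls (SD, n = 2 each). The differences of 0.21 ± 0.06 (adjusted p = 0.00779) and 0.19 ± 0.06 (adjusted p = 0.0138) lie near the shift of the median gene, and median-of-ratios scaling left an uncalled 0.02 in MHCC-97H and -0.01 in MHCC-97L. EZH1, its paralog with weaker methyltransferase activity, averaged 8.19 ± 0.099 FPKM in MHCC-97H with Flag-OGT and 3.63 ± 0.72 FPKM in the controls, a difference of 1.00 ± 0.10 (adjusted p = 6.9e-06). In MHCC-97L it averaged 8.20 FPKM with Flag-OGT, the same in both libraries, and 5.07 ± 0.54 FPKM in the controls, a difference of 0.60 ± 0.10 (adjusted p = 3.3e-04). The EZH1 share of the pair was 26.1% ± 0.50 in MHCC-97H with Flag-OGT and 15.4% ± 2.6 in the controls, and 26.97% ± 1.1 in MHCC-97L with Flag-OGT and 20.7% ± 1.1 in the controls. EZH2 was the more abundant transcript of the pair in each group. Its call was lost without the first Flag-OGT library in MHCC-97H (0.20, adjusted p = 0.054), and without the second Flag-OGT or the second control library in MHCC-97L (0.14 and 0.15, adjusted p 0.0886 to 0.103).

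SUZ12, the scaffold on which PRC2 assembles, was called in opposite directions. It had 9.12 and 9.86 FPKM in MHCC-97H with Flag-OGT, against 11.8 and 12.0 FPKM in the controls, while MHCC-97L had 9.54 and 13.0 FPKM with Flag-OGT, against 7.91 and 7.91 FPKM in the controls. The differences were -0.30 ± 0.11 (adjusted p = 0.0307) and 0.45 ± 0.11 (adjusted p = 0.00384). The call in MHCC-97H was lost when any 1 of that line's 4 libraries was left out (-0.35 to -0.25, adjusted p 0.0541 to 0.151). EED, which reads the H3K27 mark and stimulates the enzyme, averaged 8.60 ± 0.81 FPKM in MHCC-97H with Flag-OGT and 8.69 ± 0.94 FPKM in the controls, with overlapping libraries (-0.01 ± 0.09). In MHCC-97L it averaged 9.58 ± 0.30 FPKM with Flag-OGT and 8.14 ± 0.59 FPKM in the controls (0.21 ± 0.09, adjusted p = 0.0491), a call lost without any 1 Flag-OGT library of either line or the second MHCC-97L control (0.15 to 0.24, adjusted p 0.0534 to 0.254), and at 0.02 under median-of-ratios scaling. The change of EED in MHCC-97H was not shown to differ from that in MHCC-97L (-0.22 ± 0.13, adjusted p = 0.148). At the level of per-length expression, SUZ12 and EED stayed within 7.72 to 13.0 FPKM in every library.

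The accessory PRC2 subunits, which steer the complex to its targets, changed in opposite directions within each of their families. MTF2, PHF19 and PHF1 are the 3 Polycomb-like proteins, and they bind CpG-rich DNA and methylated histone H3. PHF19 had 19.7 and 23.7 FPKM in MHCC-97H with Flag-OGT, against 59.0 and 60.0 FPKM in the controls, while MHCC-97L had 15.7 and 14.1 FPKM with Flag-OGT, against 80.2 and 79.4 FPKM in the controls. It fell by 1.42 ± 0.08 (adjusted p = 6.4e-08) and by 2.34 ± 0.08 (adjusted p = 1.6e-09), the largest decrease of any member in both lines. MTF2 had 8.88 and 9.61 FPKM in MHCC-97H with Flag-OGT, against 2.97 and 3.24 FPKM in the controls, while MHCC-97L had 14.5 and 14.7 FPKM with Flag-OGT, against 3.66 and 4.06 FPKM in the controls. It rose by 1.32 ± 0.07 (adjusted p = 4.6e-08) and by 1.68 ± 0.07 (adjusted p = 8.2e-09). PHF1 averaged 11.1 ± 0.064 FPKM in MHCC-97H with Flag-OGT and 21.5 ± 0.45 FPKM in the controls, and 15.6 ± 0.16 FPKM in MHCC-97L with Flag-OGT and 24.7 ± 1.5 FPKM in the controls. It fell by 0.90 ± 0.06 (adjusted p = 2.0e-07) and by 0.63 ± 0.06 (adjusted p = 3.8e-06).

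The makeup of this family shifted accordingly. Of the summed FPKM of the 3 genes, MTF2 made up 22.0% ± 0.47 in MHCC-97H with Flag-OGT and 3.69% ± 0.21 in the controls, and 32.3% ± 0.97 in MHCC-97L with Flag-OGT and 3.56% ± 0.32 in the controls. PHF19 made up 51.5% ± 2.7 in MHCC-97H with Flag-OGT and 70.7% ± 0.46 in the controls, and 33.1% ± 1.9 in MHCC-97L with Flag-OGT and 73.6% ± 0.67 in the controls. In MHCC-97L with Flag-OGT the 3 paralogs were thus at nearly equal shares, with PHF1 at 34.7% ± 0.95, whereas PHF19 made up most of the sum in every control library. The sum itself was 42.0 ± 3.2 FPKM in MHCC-97H with Flag-OGT and 84.1 ± 0.46 FPKM in the controls, and 45.2 ± 0.79 FPKM in MHCC-97L with Flag-OGT and 108 ± 1.8 FPKM in the controls. A share within a library does not depend on how libraries are scaled, and it shows unequal change of the paralogs, not which of them changed.

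JARID2 and AEBP2 occur together in another version of PRC2. JARID2, a catalytically inactive Jumonji protein, had 10.7 and 11.2 FPKM in MHCC-97H with Flag-OGT, against 4.27 and 4.25 FPKM in the controls, while MHCC-97L had 6.78 and 7.66 FPKM with Flag-OGT, against 3.04 and 2.59 FPKM in the controls. It rose by 1.18 ± 0.08 (adjusted p = 2.6e-07) and by 1.11 ± 0.08 (adjusted p = 4.8e-07). AEBP2, a zinc-finger protein that stimulates the methyltransferase, had 6.77 and 5.87 FPKM in MHCC-97H with Flag-OGT, against 7.55 and 9.52 FPKM in the controls, while MHCC-97L had 3.09 and 3.61 FPKM with Flag-OGT, against 8.30 and 7.15 FPKM in the controls. It fell by 0.38 ± 0.12 (adjusted p = 0.012) and by 1.00 ± 0.12 (adjusted p = 1.6e-05). The MHCC-97H call was lost without the second Flag-OGT or the second control library of that line (-0.29 and -0.23, adjusted p = 0.0988 and 0.108). JARID2 made up 63.4% ± 3.1 of the pair in MHCC-97H with Flag-OGT and 33.5% ± 3.7 in the controls, and 68.3% ± 0.51 in MHCC-97L with Flag-OGT and 26.7% ± 0.15 in the controls, so the more abundant gene of the pair differed between the states in both lines.

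**Figure D2:**
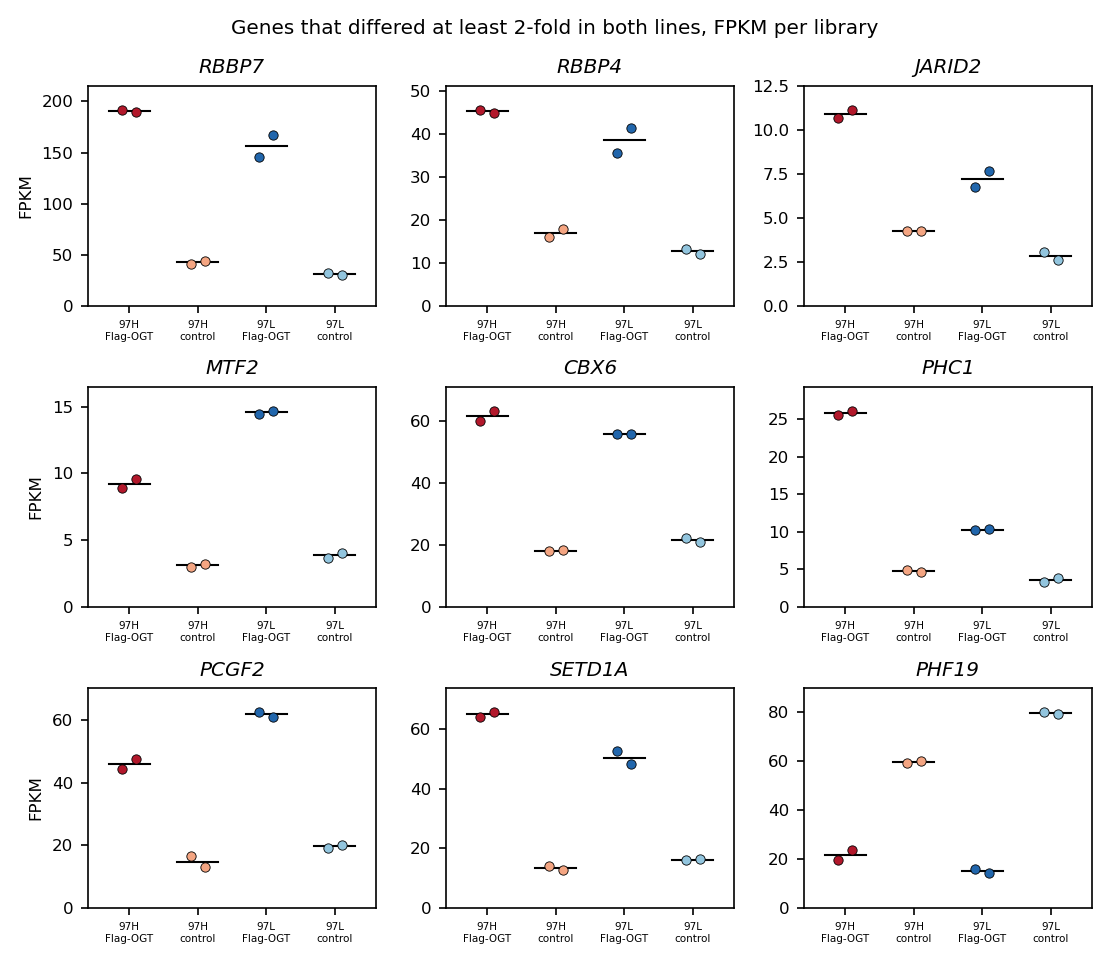
FPKM in each library (points) with the group mean (line) for the 9 genes that differed at least 2-fold between Flag-OGT and control libraries in both lines; each panel has its own axis from 0. The points of RBBP7, RBBP4, JARID2, MTF2, CBX6, PHC1, PCGF2 and SETD1A lie higher in every Flag-OGT library than in every control library, and those of PHF19 lie lower.

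Both catalytic genes of PRC1 rose. RING1, an E3 ligase for histone H2A, had 42.5 and 40.6 FPKM in MHCC-97H with Flag-OGT, against 31.3 and 30.6 FPKM in the controls, while MHCC-97L had 56.9 and 52.3 FPKM with Flag-OGT, against 24.1 and 26.5 FPKM in the controls. The differences were 0.41 ± 0.07 (adjusted p = 1.7e-04) and 1.08 ± 0.07 (adjusted p = 1.0e-07). RNF2, the more active ligase of the pair, had 12.3 and 11.7 FPKM in MHCC-97H with Flag-OGT, against 4.19 and 4.49 FPKM in the controls, while MHCC-97L had 12.3 and 13.8 FPKM with Flag-OGT, against 6.86 and 6.20 FPKM in the controls. The differences were 1.29 ± 0.08 (adjusted p = 9.0e-08) and 0.90 ± 0.08 (adjusted p = 1.7e-06). The RNF2 share of the pair in MHCC-97H was 22.5% ± 0.054 with Flag-OGT and 12.3% ± 0.71 in the controls. In MHCC-97L that share was 19.3% ± 2.2 with Flag-OGT and 20.6% ± 2.3 in the controls, a difference smaller than the spread.

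The CBX genes encode the subunits of canonical PRC1 that bind H3K27 methylation, and CBX6 and CBX8 moved apart. CBX6 had 60.2 and 63.5 FPKM in MHCC-97H with Flag-OGT, against 18.0 and 18.3 FPKM in the controls, while MHCC-97L had 56.0 and 56.0 FPKM with Flag-OGT, against 22.1 and 20.9 FPKM in the controls. It rose by 1.72 ± 0.06 (adjusted p = 6.8e-10) and by 1.34 ± 0.06 (adjusted p = 5.2e-09). CBX8 had 8.63 and 9.69 FPKM in MHCC-97H with Flag-OGT, against 11.7 and 11.6 FPKM in the controls, while MHCC-97L had 6.68 and 6.27 FPKM with Flag-OGT, against 20.9 and 22.5 FPKM in the controls. It fell by 0.32 ± 0.07 (adjusted p = 0.002) and by 1.60 ± 0.07 (adjusted p = 1.0e-08). CBX2, which carries a compacting region, had 36.9 and 36.7 FPKM in MHCC-97H with Flag-OGT, against 21.4 and 19.3 FPKM in the controls (0.83 ± 0.07, adjusted p = 1.1e-06). In MHCC-97L CBX2 had 19.4 and 17.7 FPKM with Flag-OGT, against 20.2 and 20.8 FPKM in the controls, which was not called (-0.14 ± 0.07, adjusted p = 0.0794). Common-sum and median-of-ratios scaling called CBX2 lower in MHCC-97L (-0.25 and -0.34, adjusted p = 0.00491 and 0.00207). CBX7, the lowest of the 4, had 3.94 and 3.67 FPKM in MHCC-97H with Flag-OGT, against 1.28 and 1.35 FPKM in the controls (1.05 ± 0.07, adjusted p = 2.0e-07). In MHCC-97L CBX7 had 3.36 and 3.19 FPKM with Flag-OGT, against 3.03 and 2.83 FPKM in the controls (0.12 ± 0.07, adjusted p = 0.133).

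Among these 4 CBX genes, CBX6 made up 55.4% ± 0.72 of the summed FPKM in MHCC-97H with Flag-OGT and 35.2% ± 1.3 in the controls, and 66.5% ± 1.3 in MHCC-97L with Flag-OGT and 32.3% ± 1.6 in the controls. CBX8 made up 8.20% ± 0.47 in MHCC-97H with Flag-OGT and 22.7% ± 0.45 in the controls, and 7.68% ± 0.20 in MHCC-97L with Flag-OGT and 32.5% ± 1.4 in the controls. In MHCC-97L controls CBX2, CBX6 and CBX8 lay close together, at 30.8% ± 0.42, 32.3% ± 1.6 and 32.5% ± 1.4.

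The PHC genes encode the Polyhomeotic subunits, whose SAM domains polymerise and cluster PRC1. PHC1 changed most of the 3, and in MHCC-97H its increase was, with those of SETD1A and RBBP7, among the largest of the 41 genes. It had 25.5 and 26.2 FPKM in MHCC-97H with Flag-OGT, against 4.87 and 4.66 FPKM in the controls, while MHCC-97L had 10.3 and 10.3 FPKM with Flag-OGT, against 3.31 and 3.80 FPKM in the controls. The increases were 2.22 ± 0.07 (adjusted p = 5.7e-10) and 1.31 ± 0.07 (adjusted p = 3.7e-08). PHC2, the most abundant of the 3 in every group, averaged 64.8 ± 1.7 FPKM in MHCC-97H with Flag-OGT and 74.8 ± 0.80 FPKM in the controls (-0.20 ± 0.05, adjusted p = 0.00307). In MHCC-97L PHC2 averaged 52.8 ± 0.98 FPKM with Flag-OGT and 51.9 ± 0.79 FPKM in the controls (0.02 ± 0.05), and median-of-ratios scaling gave a called -0.18. PHC3 averaged 2.55 to 2.93 FPKM in the 4 groups and was called in neither line (-0.01 ± 0.09 and 0.02 ± 0.09). The PHC1 share of the family was 27.6% ± 0.12 in MHCC-97H with Flag-OGT and 5.77% ± 0.10 in the controls, and 15.7% ± 0.29 in MHCC-97L with Flag-OGT and 6.13% ± 0.64 in the controls.

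PCGF proteins pair with RING1 or RNF2, and each of the 6 paralogs marks a separate kind of PRC1. PCGF2, which like BMI1 forms canonical PRC1, had 44.5 and 47.5 FPKM in MHCC-97H with Flag-OGT, against 16.7 and 13.0 FPKM in the controls, while MHCC-97L had 62.8 and 61.1 FPKM with Flag-OGT, against 19.3 and 20.1 FPKM in the controls. The increases were 1.58 ± 0.10 (adjusted p = 9.0e-08) and 1.61 ± 0.10 (adjusted p = 9.1e-08). PCGF6, a subunit of a variant PRC1 with E2F6 and MGA, had 9.84 and 10.7 FPKM in MHCC-97H with Flag-OGT, against 5.90 and 6.23 FPKM in the controls (0.67 ± 0.08, adjusted p = 2.4e-05). In MHCC-97L PCGF6 had 10.6 and 12.4 FPKM with Flag-OGT, against 3.17 and 3.19 FPKM in the controls (1.58 ± 0.08, adjusted p = 3.0e-08). PCGF1, which with KDM2B targets PRC1 to CpG islands, averaged 30.5 ± 1.1 FPKM in MHCC-97H with Flag-OGT and 14.9 ± 1.9 FPKM in the controls (0.99 ± 0.08), and 33.7 ± 0.78 FPKM in MHCC-97L with Flag-OGT and 23.2 ± 0.50 FPKM in the controls (0.52 ± 0.08). PCGF3 averaged 11.6 ± 0.099 FPKM in MHCC-97H with Flag-OGT and 6.25 ± 0.064 FPKM in the controls (0.80 ± 0.06), and 13.0 ± 0.35 FPKM in MHCC-97L with Flag-OGT and 6.01 ± 0.057 FPKM in the controls (0.99 ± 0.06). Those 4 differences of PCGF1 and PCGF3 were all called.

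PCGF5 and BMI1 were the PCGF genes that fell in MHCC-97H. PCGF5 had 1.75 and 1.42 FPKM in MHCC-97H with Flag-OGT, against 2.21 and 2.52 FPKM in the controls (-0.38 ± 0.09, adjusted p = 0.00193), while MHCC-97L had 2.46 and 2.66 FPKM with Flag-OGT, against 1.77 and 1.88 FPKM in the controls (0.33 ± 0.09, adjusted p = 0.00442). Median-of-ratios scaling ended the PCGF5 call in MHCC-97L (0.19, adjusted p = 0.0592). BMI1, best known for repressing the CDKN2A locus, had 9.07 and 7.86 FPKM in MHCC-97H with Flag-OGT, against 12.8 and 12.5 FPKM in the controls (-0.53 ± 0.18, adjusted p = 0.0205). This call was lost without the second Flag-OGT library or either control library of MHCC-97H (-0.55 to -0.44, adjusted p 0.059 to 0.115). In MHCC-97L BMI1 had 2.29 and 1.87 FPKM with Flag-OGT, against 1.07 and 2.35 FPKM in the controls, and the libraries overlapped (0.22 ± 0.18, adjusted p = 0.272). This rests on the second MHCC-97L control library, without which the difference was 0.57. The table lists a read-through transcript COMMD3-BMI1 that overlaps BMI1, at 4.65 and 4.14 FPKM in MHCC-97H with Flag-OGT, against 10.4 and 14.2 FPKM in the controls, while MHCC-97L had 9.53 and 13.1 FPKM with Flag-OGT, against 9.34 and 6.47 FPKM in the controls. How reads were split between them is not given, so the level of BMI1 is uncertain. Their sum was 13.7 and 12.0 FPKM in MHCC-97H with Flag-OGT, against 23.2 and 26.6 FPKM in the controls, while MHCC-97L had 11.8 and 15.0 FPKM with Flag-OGT, against 10.4 and 8.82 FPKM in the controls.

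As a share of the 6 PCGF genes, PCGF2 made up 42.4% ± 1.8 in MHCC-97H with Flag-OGT and 26.0% ± 4.3 in the controls, and 49.6% ± 0.76 in MHCC-97L with Flag-OGT and 35.4% ± 0.37 in the controls. BMI1 made up 7.81% ± 0.82 in MHCC-97H with Flag-OGT and 22.2% ± 0.20 in the controls, and 1.67% ± 0.23 in MHCC-97L with Flag-OGT and 3.05% ± 1.5 in the controls. The summed FPKM of the family was 108 ± 0.46 in MHCC-97H with Flag-OGT and 57.0 ± 0.61 in the controls, and 125 ± 0.52 in MHCC-97L with Flag-OGT and 55.6 ± 2.1 in the controls. KDM2B, a CpG-binding demethylase of the PCGF1 complex, averaged 15.9 ± 0.18 FPKM in MHCC-97H with Flag-OGT and 12.0 ± 1.1 FPKM in the controls (0.38 ± 0.07, adjusted p = 4.6e-04). In MHCC-97L it averaged 12.1 ± 0.064 FPKM with Flag-OGT and 10.7 ± 0.12 FPKM in the controls and was not called (0.16 ± 0.07, adjusted p = 0.0546). Quantile scaling called KDM2B higher in MHCC-97L too (0.17, adjusted p = 0.044). Its change in MHCC-97H was not shown to differ from that in MHCC-97L (0.22 ± 0.10, adjusted p = 0.0709). With a common sum that difference was called (0.28, adjusted p = 0.0288).

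**Figure D3:**
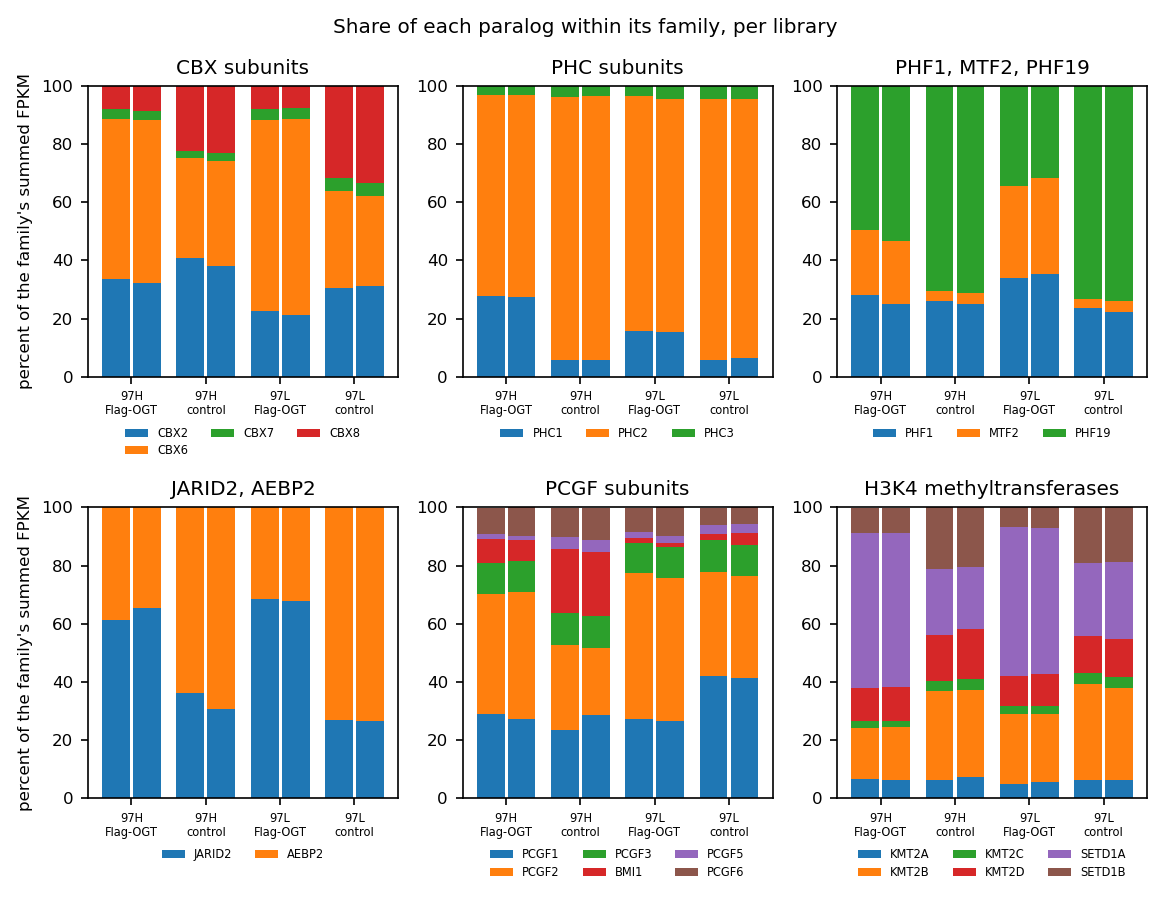
Share of each paralog in the summed FPKM of the genes listed under each panel, 1 stacked bar per library, with the 2 libraries of a group side by side. CBX6, PHC1, MTF2, JARID2, PCGF2 and SETD1A take larger shares in Flag-OGT than in control libraries of both lines, and CBX8, PHF19, AEBP2 and SETD1B smaller ones.

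ASXL proteins activate the deubiquitinase BAP1, which removes the mark that PRC1 writes. ASXL1 averaged 26.0 ± 1.4 FPKM in MHCC-97H with Flag-OGT and 15.3 ± 0.53 FPKM in the controls (0.73 ± 0.08, adjusted p = 1.3e-05), and 26.0 ± 2.9 FPKM in MHCC-97L with Flag-OGT and 16.5 ± 0.98 FPKM in the controls (0.63 ± 0.08, adjusted p = 4.1e-05). ASXL2 averaged 2.57 ± 0.035 FPKM in MHCC-97H with Flag-OGT and 2.85 ± 0.22 FPKM in the controls, and was not called (-0.11 ± 0.07). In MHCC-97L ASXL2 fell to 1.31 ± 0.021 FPKM with Flag-OGT, against 1.80 ± 0.099 FPKM in the controls (-0.28 ± 0.07, adjusted p = 0.0043). Under median-of-ratios and quantile scaling ASXL2 was also called lower in MHCC-97H (-0.26 and -0.31). The change of ASXL2 in MHCC-97H was not shown to differ from that in MHCC-97L (0.17 ± 0.10, adjusted p = 0.163).

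On the Trithorax side, the SETD1 pair of H3K4 methyltransferases split, while the 4 KMT2 genes were called higher by at most 0.82 in both lines, with KMT2B turning to -0.01 in MHCC-97L under median-of-ratios scaling. SETD1A, which with SETD1B carries out most trimethylation of H3K4, had 64.1 and 65.9 FPKM in MHCC-97H with Flag-OGT, against 14.1 and 12.6 FPKM in the controls, while MHCC-97L had 52.5 and 48.3 FPKM with Flag-OGT, against 16.0 and 16.4 FPKM in the controls. It rose by 2.21 ± 0.07 (adjusted p = 4.6e-10) and by 1.58 ± 0.07 (adjusted p = 6.9e-09). SETD1B averaged 10.9 ± 0.30 FPKM in MHCC-97H with Flag-OGT and 12.6 ± 1.1 FPKM in the controls (-0.19 ± 0.07, adjusted p = 0.0285), and 6.67 ± 0.028 FPKM in MHCC-97L with Flag-OGT and 11.9 ± 0.14 FPKM in the controls (-0.75 ± 0.07, adjusted p = 2.8e-06). The MHCC-97H call on SETD1B was lost without either Flag-OGT library or the first control library of that line (-0.21 to -0.11, adjusted p 0.0656 to 0.181). SETD1A and SETD1B were thus at similar levels in the controls and several-fold apart in the Flag-OGT libraries.

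KMT2A, the MLL1 gene rearranged in leukaemia, averaged 7.95 ± 0.12 FPKM in MHCC-97H with Flag-OGT and 4.09 ± 0.26 FPKM in the controls (0.82 ± 0.07, adjusted p = 1.4e-06), and 5.17 ± 0.28 FPKM in MHCC-97L with Flag-OGT and 3.90 ± 0.035 FPKM in the controls (0.33 ± 0.07, adjusted p = 0.00128). KMT2D, an enhancer H3K4 monomethyltransferase, averaged 14.1 ± 0.76 FPKM in MHCC-97H with Flag-OGT and 10.0 ± 0.078 FPKM in the controls (0.45 ± 0.06), and 10.5 ± 0.28 FPKM in MHCC-97L with Flag-OGT and 8.13 ± 0.11 FPKM in the controls (0.34 ± 0.06). Its paralog KMT2C averaged 2.75 ± 0.028 FPKM in MHCC-97H with Flag-OGT and 2.14 ± 0.17 FPKM in the controls (0.26 ± 0.07, adjusted p = 0.00647), and 2.68 ± 0.12 FPKM in MHCC-97L with Flag-OGT and 2.26 ± 0.014 FPKM in the controls (0.17 ± 0.07, adjusted p = 0.0429). KMT2B, the paralog of KMT2A, averaged 22.0 ± 0.78 FPKM in MHCC-97H with Flag-OGT and 18.3 ± 1.4 FPKM in the controls (0.25 ± 0.07, adjusted p = 0.00898), and 23.5 ± 1.7 FPKM in MHCC-97L with Flag-OGT and 20.4 ± 0.75 FPKM in the controls (0.20 ± 0.07, adjusted p = 0.0292). The calls on KMT2B and KMT2C did not hold under median-of-ratios scaling in either line, where KMT2B was at 0.06 in MHCC-97H and -0.01 in MHCC-97L. That scaling also ended the KMT2D call in MHCC-97L (0.15, adjusted p = 0.0517). KMT2C lost its MHCC-97L call without any 1 of 5 libraries, which were both MHCC-97H Flag-OGT libraries, the second MHCC-97L Flag-OGT library and both MHCC-97L controls (0.14 to 0.18, adjusted p 0.0651 to 0.148). KMT2B lost its call without the second Flag-OGT or the second control library in MHCC-97H (0.22 and 0.18, adjusted p = 0.0691 and 0.0599), and without the first Flag-OGT or the second control library in MHCC-97L (0.13 and 0.16, adjusted p = 0.19 and 0.148). SETD1A made up 53.0% ± 0.36 of the summed FPKM of the 6 methyltransferases in MHCC-97H with Flag-OGT and 22.0% ± 0.59 in the controls, and 50.9% ± 0.68 in MHCC-97L with Flag-OGT and 25.8% ± 0.66 in the controls. The KMT2B share was 17.9% ± 0.17 in MHCC-97H with Flag-OGT and 30.3% ± 0.73 in the controls, and 23.8% ± 0.58 in MHCC-97L with Flag-OGT and 32.5% ± 0.90 in the controls.

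Of the subunits that these methyltransferases share, ASH2L and WDR5 rose and DPY30 was not called, and MEN1, which joins only some of their complexes, rose too. MEN1, the tumour suppressor menin that joins the KMT2A and KMT2B complexes, had 86.7 and 86.2 FPKM in MHCC-97H with Flag-OGT, against 33.0 and 30.6 FPKM in the controls, while MHCC-97L had 90.5 and 82.5 FPKM with Flag-OGT, against 43.3 and 47.5 FPKM in the controls. The increases were 1.42 ± 0.07 (adjusted p = 1.4e-08) and 0.92 ± 0.07 (adjusted p = 4.8e-07). ASH2L, part of the catalytic core, had 27.5 and 28.6 FPKM in MHCC-97H with Flag-OGT, against 10.4 and 10.2 FPKM in the controls, while MHCC-97L had 14.2 and 14.4 FPKM with Flag-OGT, against 8.15 and 7.63 FPKM in the controls. The increases were 1.36 ± 0.06 (adjusted p = 7.1e-09) and 0.79 ± 0.06 (adjusted p = 6.1e-07). WDR5, the presenter of the H3 tail, averaged 47.4 ± 0.21 FPKM in MHCC-97H with Flag-OGT and 32.0 ± 0.76 FPKM in the controls (0.55 ± 0.05), and 43.0 ± 0.26 FPKM in MHCC-97L with Flag-OGT and 31.8 ± 1.3 FPKM in the controls (0.42 ± 0.05). DPY30 had 46.3 and 49.3 FPKM in MHCC-97H with Flag-OGT, against 49.8 and 50.4 FPKM in the controls (-0.07 ± 0.06), while MHCC-97L had 85.9 and 97.2 FPKM with Flag-OGT, against 88.6 and 89.1 FPKM in the controls (0.04 ± 0.06). Median-of-ratios scaling called DPY30 lower in both lines (-0.27 and -0.17).

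Of the H3K27 demethylases, KDM6B was called in opposite directions in the lines. KDM6B, also called JMJD3 and known as an inducible enzyme, had 11.5 and 11.8 FPKM in MHCC-97H with Flag-OGT, against 6.96 and 5.81 FPKM in the controls (0.78 ± 0.10, adjusted p = 2.5e-05). In MHCC-97L it had 7.84 and 7.00 FPKM with Flag-OGT, against 9.97 and 11.5 FPKM in the controls (-0.48 ± 0.10, adjusted p = 9.0e-04). KDM6A, the X-linked UTX gene, had 5.83 and 5.15 FPKM in MHCC-97H with Flag-OGT, against 4.56 and 5.33 FPKM in the controls, and was not called (0.13 ± 0.09, adjusted p = 0.227). In MHCC-97L KDM6A had 3.87 and 4.39 FPKM with Flag-OGT, against 2.89 and 3.22 FPKM in the controls (0.34 ± 0.09, adjusted p = 0.00674), a call lost without the second Flag-OGT or the first control library of MHCC-97L (0.27 and 0.28, adjusted p = 0.0589 and 0.0534) and under median-of-ratios scaling (0.17, adjusted p = 0.0987). The change of KDM6A in MHCC-97H was not shown to differ from that in MHCC-97L (-0.21 ± 0.13, adjusted p = 0.19).

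The change with Flag-OGT differed between MHCC-97H and MHCC-97L for 24 of the 41 genes (58.5%), 16 with a higher and 8 with a lower value in MHCC-97H, in the test of the difference itself. Of all tested genes 63.3% were called there, 33.9% higher and 29.4% lower. The 4 CBX genes were all on the higher side: CBX8 differed by 1.28 ± 0.10 (adjusted p = 5.0e-06), CBX2 by 0.96 ± 0.10 (adjusted p = 2.1e-05), CBX7 by 0.93 ± 0.10 (adjusted p = 3.4e-05) and CBX6 by 0.38. KDM6B differed by 1.26 ± 0.14 (adjusted p = 3.4e-05), rising in MHCC-97H and falling in MHCC-97L. PHC1 gained more in MHCC-97H (0.91 ± 0.10, adjusted p = 3.8e-05), and PHF19 lost more in MHCC-97L (0.92 ± 0.12, adjusted p = 9.8e-05). On the other side, PCGF6 gained more in MHCC-97L (-0.90 ± 0.12, adjusted p = 1.1e-04), and SUZ12 (-0.74 ± 0.16, adjusted p = 0.00251) and PCGF5 (-0.72 ± 0.12, adjusted p = 6.4e-04) rose there and fell in MHCC-97H. BMI1 had a difference of -0.75 ± 0.26 (adjusted p = 0.0278), lost without the second MHCC-97H Flag-OGT, either MHCC-97H control or the first MHCC-97L Flag-OGT library (-0.77 to -0.65, adjusted p 0.0571 to 0.106). The count of lower members was 5 instead of 8 without the first MHCC-97H Flag-OGT library.

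**Figure D4:**
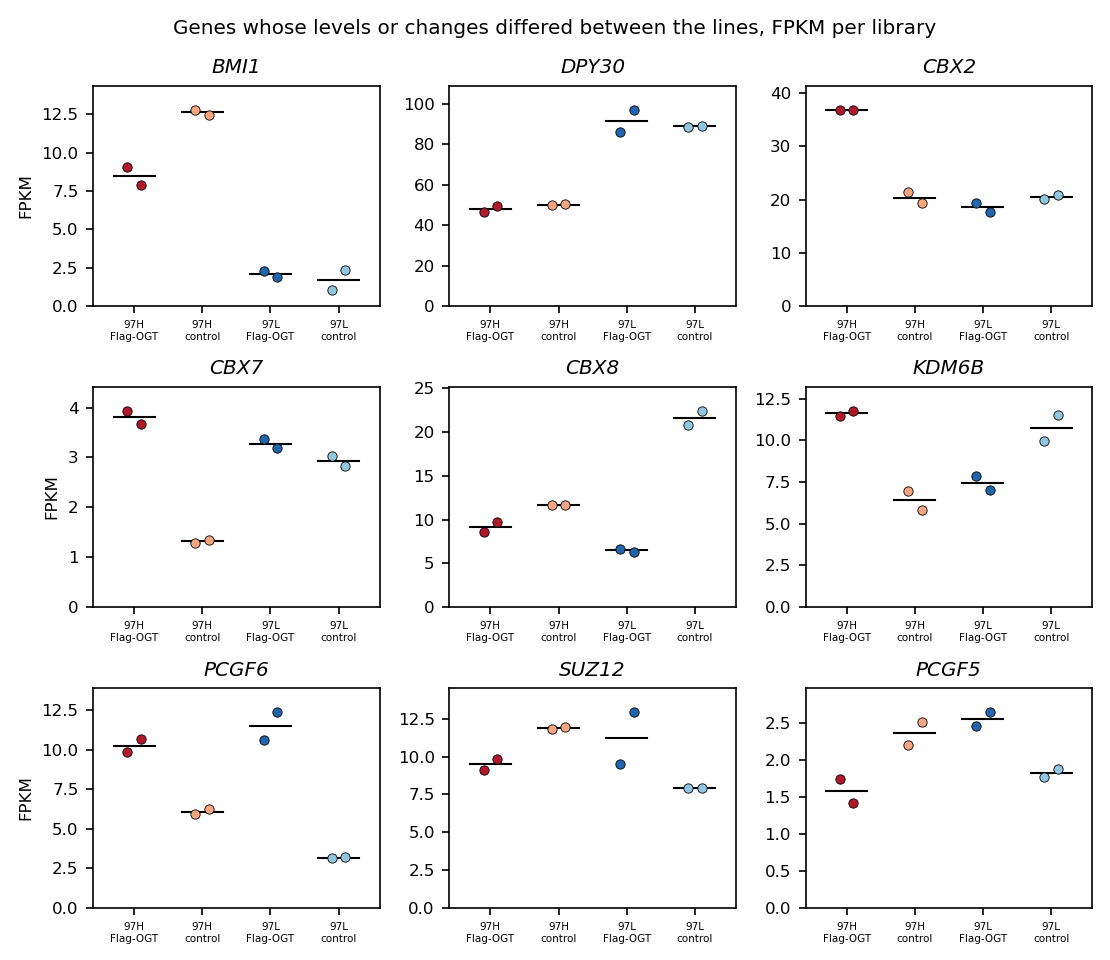
FPKM in each library (points) with the group mean (line) for 9 genes that stood out in the comparisons between the lines; each panel has its own axis from 0. DPY30 is lower in MHCC-97H than in MHCC-97L in both states, as BMI1 is higher, although with Flag-OGT the sum of BMI1 and the overlapping COMMD3-BMI1 overlaps between the lines; CBX2 is high in MHCC-97H with Flag-OGT alone, CBX7 is low in the MHCC-97H controls, CBX8 is high in the MHCC-97L controls, and KDM6B, SUZ12 and PCGF5 move in opposite directions in the lines. The SUZ12 call in MHCC-97H was lost without any 1 library of that line. Median-of-ratios scaling ended the PCGF5 call in MHCC-97L.

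Between the lines themselves, DPY30 was lower in MHCC-97H in both states. BMI1 as listed was higher there in both, but the gap among Flag-OGT libraries depends on how reads were split with COMMD3-BMI1: their sum was 13.7 and 12.0 FPKM in MHCC-97H with Flag-OGT and 11.8 and 15.0 FPKM in MHCC-97L with Flag-OGT, which overlap, as COMMD3-BMI1 went the other way (-1.18 ± 0.19, adjusted p = 2.9e-04). Among controls 28 members were called, 14 higher and 14 lower in MHCC-97H, where 65.4% of all tested genes were called, 26.5% higher and 38.9% lower. Rescaling moved this split to 20 higher and 10 lower with a common sum, beside 34.5% and 31.2% of all genes, and to 21 and 9 with median-of-ratios factors, beside 36.4% and 30.3%. BMI1 was higher in MHCC-97H controls than in MHCC-97L controls by 2.37 ± 0.18 (adjusted p = 2.8e-06), PCGF6 by 0.76 ± 0.08 (adjusted p = 2.8e-05) and KDM6A by 0.55 ± 0.09 (adjusted p = 5.7e-04). Lowest in MHCC-97H controls relative to MHCC-97L controls were CBX8 (-0.84 ± 0.07, adjusted p = 6.1e-06), DPY30 (-0.81 ± 0.06, adjusted p = 3.4e-06) and CBX7 (-0.76 ± 0.07, adjusted p = 9.9e-06). Among Flag-OGT libraries 28 members were called too, 21 higher and 7 lower in MHCC-97H, where 69.7% of all tested genes were called, 33.6% higher and 36.1% lower. A common sum gave 25 higher and 5 lower, beside 43.8% and 26.2% of all genes. Median-of-ratios factors gave 24 and 6, beside 41.9% and 27.7%. Without rescaling, BMI1 was higher in MHCC-97H with Flag-OGT by 1.62 ± 0.18 (adjusted p = 2.9e-05), PHC1 by 1.25 ± 0.07 (adjusted p = 4.0e-07) and CBX2 by 0.96 ± 0.07 (adjusted p = 1.5e-06). Lowest there relative to MHCC-97L were DPY30 (-0.92 ± 0.06, adjusted p = 1.4e-06), MTF2 (-0.61 ± 0.07, adjusted p = 5.0e-05) and PCGF5 (-0.46 ± 0.09, adjusted p = 8.2e-04). The 2 comparisons of lines share no library. In both, 10 members were higher in MHCC-97H, beside 13.6% of all genes, and 4 were lower (PHF1, MTF2, PCGF2 and DPY30), beside 19.1%. Opposite calls were found for 7 members (17.1%), PHF19, RING1, CBX6, CBX8, PCGF5, SETD1A and KDM6B, beside 13.7%. Some of these calls were lost without 1 library of the state compared or, for CBX6, also without either MHCC-97L control, among controls those on MTF2 (adjusted p 0.0753 to 0.119), PHF1 (0.0631 to 0.161) and PCGF5 (0.0598 to 0.151), and among Flag-OGT libraries those on CBX6 (0.0582 to 0.267), RBBP4 (0.0941 to 0.255) and KDM6A (0.0715 to 0.084). Rescaling also ended calls among controls: with a common sum and with median-of-ratios factors, PHF1 was at -0.06 and -0.04 (adjusted p = 0.399 and 0.561), MTF2 at -0.14 and -0.12 (0.128 and 0.15), CBX6 at -0.11 and -0.09 (0.121 and 0.187) and SETD1A at -0.14 and -0.12 (0.0816 and 0.177). PCGF2 was no longer called among controls with median-of-ratios factors (-0.25, adjusted p = 0.0548) or among Flag-OGT libraries with a common sum (-0.23, adjusted p = 0.054).

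Line differences of the 41 genes had a smaller median than those between states. Regardless of sign, their median was 0.36 between lines among Flag-OGT libraries and 0.34 among controls, against 0.73 and 0.60 between states within MHCC-97H and MHCC-97L. Over all tested genes the same medians were 0.36, 0.31, 0.73 and 0.70. RBBP7 was the most abundant member in both Flag-OGT groups, PHC2 in the MHCC-97H controls, and DPY30 in the MHCC-97L controls, where PHF19 followed at 79.8 ± 0.59 FPKM. At the low end ASXL2, PCGF5, KMT2C and PHC3 stayed at or under 3.02 FPKM in every library.

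Other genes of the same pathways, taken from lists of further Polycomb partners, further H3K4 and Trithorax factors and BAF remodelling subunits, had more higher than lower members, as did all tested genes, of which 48.2% were higher and 36.3% lower in MHCC-97H (median 0.15) and 50.1% higher and 34.7% lower in MHCC-97L (median 0.19). Of 28 further Polycomb genes 26 were tested, with 22 higher and 3 lower in MHCC-97H (median 1.26) and 18 higher and 4 lower in MHCC-97L (median 0.58). AUTS2, an activator that joins PCGF3 and PCGF5 complexes, averaged 15.9 ± 0.62 FPKM in MHCC-97H with Flag-OGT and 0.12 ± 0.071 FPKM in the controls (3.91 ± 0.07), and 11.1 ± 0.23 FPKM in MHCC-97L with Flag-OGT and 0.21 ± 0.028 FPKM in the controls (3.32 ± 0.07). The lowest called were YAF2 in MHCC-97H (-0.87 ± 0.12), a RING1-binding PRC1 subunit, and FOXK2 in MHCC-97L (-0.64 ± 0.05), a forkhead factor that binds BAP1. All 18 further H3K4 and Trithorax genes were tested, with 13 higher and 2 lower in MHCC-97H (median 0.90) and 13 higher and 3 lower in MHCC-97L (median 0.77). PSIP1, which tethers menin and KMT2A to chromatin, averaged 60.2 FPKM in MHCC-97H with Flag-OGT and 4.41 FPKM in the controls (3.51 ± 0.09), and 60.5 FPKM in MHCC-97L with Flag-OGT and 5.61 FPKM in the controls (3.22 ± 0.09). ASH1L, a Trithorax H3K36 methyltransferase, was the lowest in both (-1.16 ± 0.07 and -1.35 ± 0.07). Of 26 BAF genes 25 were tested, with 18 higher and 3 lower in MHCC-97H (median 0.74) and 19 higher and 4 lower in MHCC-97L (median 0.62). DPF1, a neural BAF subunit, was the highest in MHCC-97H (2.41 ± 0.10), PHF10 of the PBAF complex in MHCC-97L (2.04 ± 0.08), and SS18 the lowest in both (-1.63 ± 0.07 and -1.15 ± 0.07).

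The proliferation genes, which EZH2 often follows in dividing cells, were 18 in number. Of them 11 were higher and 4 lower in MHCC-97H (median 0.41), and 13 higher and 2 lower in MHCC-97L (median 0.22, near the 0.19 of all tested genes). MCM2, a replication helicase subunit, was the highest in MHCC-97H (1.45 ± 0.05) and the mitotic kinase gene AURKB in MHCC-97L (1.45 ± 0.06). FOXM1, a driver of mitotic transcription, was the lowest called in both (-0.72 ± 0.06 and -0.80 ± 0.06). RBBP4, SUZ12, PHC1 and KMT2C have pseudogene or partial copies elsewhere in the genome, and how the authors' counting treated shared reads is not given, so their values carry that uncertainty.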

How the data were processed

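Total RNA of 8 libraries, 4 groups of 2, was extracted with Trizol and sequenced from SMARTer libraries, per the labels' protocols. The authors deposited FPKM values per gene, given to 2 decimals in 1 table. The submitters' processing notes name the hg19 build and the tools HISAT2 2.1.0, Bowtie2, DESeq2 1.18.1 and RSEM 1.2.4, without saying which made the FPKM. No read counts are given with the FPKM, so the depth is unknown and only the 2 libraries per group bound the precision.

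Of 18928 features, 26 with symbols turned into dates were left out. Tested were genes whose mean FPKM reached 0.5. Log2(FPKM + 1) was fitted with 4 group means over all 8 libraries in limma 3.58.1 under R 4.3.3 (empirical Bayes along the mean-variance trend, 4 residual degrees of freedom), and p-values were Benjamini-Hochberg adjusted over all tested genes. The procedure was tested on simulated data. The 41 genes, the other lists and the tests were chosen with earlier results of these data known. All 41 were named, with values in every library for those called at 2-fold or more with Flag-OGT and for the 3 most extreme in each direction of the other comparisons; of each further list the highest and lowest called gene was named. COMMD3-BMI1, HNF4A, TTR, KRT18, APOA1 and COL1A2 were named after their values were seen. Alternatives tried were no filter, a filter at 2, a pseudocount of 0.1, common-sum, median-of-ratios and quantile scaling, 2 groups compared alone, a replicate block and each library left out. RefSeq promoter windows (GRCh38.p14) were searched in Python 3.11.15 for GGAGGA on both strands, without joining overlapping matches. Some genes of these families are not reported here.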

Additional observations from a re-analysis of the deposited data

Results flagged for a closer look

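The test of the difference itself separated the Flag-OGT change in MHCC-97H from that in MHCC-97L for 24 of the 41 genes, where 63.3% of all tested genes were called. Values are log2 differences of changes, MHCC-97H minus MHCC-97L. Among PRC2 genes they were 0.39 for EZH1, -0.74 for SUZ12, 0.63 for AEBP2, 0.92 for PHF19, -0.27 for PHF1 and -0.36 for MTF2. PRC1 genes gave 0.39 for RNF2, -0.67 for RING1, 0.96 for CBX2, 0.38 for CBX6, 0.93 for CBX7 and 1.28 for CBX8. They also gave 0.91 for PHC1, -0.23 for PHC2, 0.47 for PCGF1, -0.75 for BMI1, -0.72 for PCGF5 and -0.90 for PCGF6. Among Trithorax genes they were 0.48 for KMT2A, 0.63 for SETD1A, 0.56 for SETD1B, 0.58 for ASH2L, 0.50 for MEN1 and 1.26 for KDM6B. The calls on BMI1, EZH1, MTF2, PHC2, PHF1 and RNF2 were each lost without at least 1 library. The EZH1 call was lost in 6 such fits and the BMI1 call in 4. Both were also lost with a pseudocount of 0.1 and with no filter. Quantile scaling ended the calls on EZH1 (0.21, adjusted p = 0.179) and RNF2 (0.24, adjusted p = 0.0556). A common sum ended those on PHC2 (-0.17, adjusted p = 0.0675) and PHF1 (-0.21, adjusted p = 0.0549).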

How the results depend on the processing

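Across the alternatives, the counts of called members stayed within 1.5 times the reported value with a few exceptions. Lower members between the control lines numbered 9 with median-of-ratios scaling. Without 1 library each, called members ranged from 31 to 36 in MHCC-97H (26 to 27 higher, 5 to 9 lower), from 30 to 36 in MHCC-97L (23 to 28 higher, 7 to 8 lower) and from 19 to 24 in the difference (14 to 16 higher, 5 to 8 lower). Between lines they ranged from 25 to 28 among controls and from 23 to 29 among Flag-OGT libraries. Among members called before or after rescaling, median-of-ratios scaling turned the sign in MHCC-97L for EZH2 (-0.01), PHC2 (-0.18), KMT2B (-0.01) and DPY30 (-0.17). A common sum did so for PCGF3 between Flag-OGT lines (0.03). Turned signs of members called in neither setting are not listed, and the cause was not tested. Other than in the difference and between lines, calls were lost under some setting for AEBP2, BMI1, EZH2, KMT2B, KMT2C, SETD1B and SUZ12 in MHCC-97H and for EED, EZH2, KDM6A, KMT2B, KMT2C, KMT2D and PCGF5 in MHCC-97L. Some rescaling of the libraries gained calls for ASXL2 and DPY30 in MHCC-97H and for CBX2, DPY30, KDM2B and PHC2 in MHCC-97L.

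The replicate numbers do not establish pairing: deviations of same-numbered libraries correlated between groups at -0.21 to 0.31. With a replicate block, 27 members were higher and 9 lower in MHCC-97H, 25 and 7 in MHCC-97L, 16 and 8 in the difference, 14 and 14 between control lines and 19 and 6 between Flag-OGT lines.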
